A study of Mus musculus with 13 samples.

Results

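Foxi3, its paralogs Foxi1 and Foxi2, and the ectodysplasin pathway genes Eda, Edar, Eda2r, Edaradd and Traf6 were examined in neonatal mouse skin lacking KCTD1 and KCTD15 in keratinocytes. These 8 genes were chosen by name out of 49315 genes in the count files. They are a forkhead gene of the ectodysplasin pathway with its closest relatives, and the ligand, receptors and adaptors of that pathway. The study that produced these libraries had already reported Foxi3 as strongly increased in this skin. The Foxi3 values below are from the same data and are no independent finding. RNA-Seq was performed on full-thickness back skin at postnatal day 4 (P4) from 3 WT mice and from 3 K14Cre+ littermates that were Kctd1 fl/fl and Kctd15 fl/fl (DKO). K14Cre deletes the floxed exons in keratin 14-expressing keratinocytes and their descendants, so that dermis, fat, muscle, vessels and immune cells of the same piece of skin kept both genes. Of the 13 libraries in the series, the 7 epidermis libraries of 3-week-old mice, 4 of the DKO genotype and 3 of K14Cre+ mice with floxed Kctd15 alone, list 0 for every gene in the files used here and were not analysed. From that epidermis the study also reported higher Foxi3 in DKO, which could not be examined here. By immunolabeling it placed Foxi3 protein where isthmus and infundibulum of the P4 hair follicle meet.

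Ectodysplasin (EDA) is a ligand of the tumor necrosis factor family that signals from epithelium to epithelium when hair follicles, teeth, and sweat and meibomian glands form. It binds the receptor EDAR, which recruits the adaptor EDARADD and, through TRAF6 and the TAK1 complex, activates NF-κB, whereas another splice form of the ligand binds the X-linked receptor EDA2R. Loss of the ligand, of EDAR or of EDARADD causes hypohidrotic ectodermal dysplasia. Foxi3 is a forkhead transcription factor of the hair placode and the follicle, is known as a target of ectodysplasin signaling, and is disrupted in hairless dog breeds. KCTD1 and KCTD15 are known as inhibitors of AP-2 transcription factors.

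The promoters of Foxi3, Edar and Eda2r are shown because Foxi3 and Eda2r had the largest differences between genotypes among the 8 genes and because Foxi3 and Edar hold the AP-2 motif. Each covers 250 bases before and 50 bases after the RefSeq transcription start on GRCm38.p6, on the strand of the gene, and capitals mark a match to the AP-2 motif GCCNNNGGC, which reads the same on both strands. Foxi3 lies at chr6:70956356-70956655 (+), Edar at chr10:58675647-58675946 (-) and Eda2r at chrX:97377160-97377459 (-).
Foxi3: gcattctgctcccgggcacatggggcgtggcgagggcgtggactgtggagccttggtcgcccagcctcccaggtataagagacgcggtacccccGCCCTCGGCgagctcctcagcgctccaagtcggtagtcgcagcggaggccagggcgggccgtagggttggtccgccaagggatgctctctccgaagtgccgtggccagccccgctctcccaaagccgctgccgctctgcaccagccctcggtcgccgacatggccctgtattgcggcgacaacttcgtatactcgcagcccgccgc
Edar: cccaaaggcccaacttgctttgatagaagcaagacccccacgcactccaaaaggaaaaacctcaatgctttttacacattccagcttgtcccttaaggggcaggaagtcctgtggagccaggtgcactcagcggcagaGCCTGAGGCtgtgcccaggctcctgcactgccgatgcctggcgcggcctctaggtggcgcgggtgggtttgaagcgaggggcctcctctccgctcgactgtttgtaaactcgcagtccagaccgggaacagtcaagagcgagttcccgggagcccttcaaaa
Eda2r: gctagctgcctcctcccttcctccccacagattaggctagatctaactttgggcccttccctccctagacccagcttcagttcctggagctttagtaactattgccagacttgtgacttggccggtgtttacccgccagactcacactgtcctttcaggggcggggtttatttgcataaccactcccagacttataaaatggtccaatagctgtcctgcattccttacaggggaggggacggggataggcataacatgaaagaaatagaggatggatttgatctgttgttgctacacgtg

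All 8 genes had a promoter in the RefSeq table. The motif GCCNNNGGC was found in the windows of Foxi3, Foxi1 and Edar, that is in 3 of 8, and in 16.6% of 32817 promoter windows of the same length. The match in Foxi3 begins at position -156 from the start and that in Edar at -112. Foxi1 holds matches at -127 and 38, and the windows of Foxi2, Eda, Eda2r, Edaradd and Traf6 hold none of these letters. The κB motif, searched on both strands, was in none of the 8 windows and in 4.5% of all windows. Such matches describe the letters only.

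The transcripts of the 8 genes were compared with those of all other genes to see whether reads could be shared. No stretch of 50 bases of any Foxi3, Foxi1, Foxi2, Edar, Eda2r, Edaradd or Traf6 transcript occurs in a transcript of another gene, and of Eda 28 of 7042 do (0.4%). A longer read from these genes is thus found in no other annotated transcript, apart from those stretches of Eda, and the exons of none of the 8 genes overlap those of another gene.

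The 6 libraries held 11263863 to 17643043 counts assigned to genes, lowest in DKO replicate 1. Counts were scaled to a common library size (normalised counts), and 20168 genes passed the filter on low counts. A gene was called when edgeR's quasi-likelihood test gave a Benjamini-Hochberg adjusted p under 0.05 and the log2 fold change exceeded 1 in either direction. By this rule 14 genes were called, 8 higher and 6 lower in DKO, and the median log2 fold change of all genes tested was 0.02. Whole skin is a mixture, in which fewer cells of a type and less RNA per cell cannot be told apart. The targeted genes do not check the labels, since the counts cover whole genes rather than the deleted exons. Kctd15 averaged 745.3 ± 15.5 normalised counts in WT and 1321.5 ± 189.3 in DKO (SD, n = 3), and Kctd1 averaged 431.9 ± 19 and 741.9 ± 239.6. Both were higher in every DKO library than in every WT library, as were 7.24% of all genes tested. The adjusted p was 0.107 for Kctd15 and 0.342 for Kctd1 in edgeR's quasi-likelihood test, and 0.000662 and 0.0814 in DESeq2, with log2 fold changes of 0.83 and 0.78, under the threshold of 1.

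Foxi3 (ENSMUSG00000055874, GRCm38 chr6:70956531-70961066, + strand) was low in WT skin and several times higher in each DKO mouse. The 3 WT libraries held 26, 12 and 23 reads and the 3 DKO libraries 90, 73 and 60. After scaling these were 26.5, 10.2 and 19.7 normalised counts in WT and 118.3, 80.5 and 59.7 in DKO. Each DKO library thus lay above all WT libraries (7.24% of all genes tested did so), and the lowest DKO value (59.7) was well clear of the highest WT value (26.5). The means were 18.8 ± 8.19 in WT and 86.2 ± 29.7 in DKO (SD, n = 3), a fold change of 4.59 with a 95% interval of 2.49 to 8.44. On the log2 scale the difference was 2.20 with an SE of 0.39. Of the 20168 genes tested, 15 had a log2 fold change at least as high, Foxi3 included.

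The direction of the Foxi3 difference was the same in every fit, but whether it passed the threshold depended on the test. In edgeR's quasi-likelihood test the unadjusted p was 0.000259, the 40th smallest, and the Benjamini-Hochberg adjusted p was 0.131. None of the 6 members tested was therefore called, beside 0.0694% of all genes tested. DESeq2 is the tool that the study used, with the same thresholds. In DESeq2 the adjusted p was 0.000127, and Foxi3 was the only member called, beside 0.732% of 20617 genes. Foxi3 was also called by edgeR without the filter on low counts (adjusted p = 0.000122, Benjamini-Hochberg), as was Eda2r. In that fit 0.624% of 33677 genes were called. The log2 fold change of Foxi3 stayed between 1.89 and 2.72 in every alternative fit. Without DKO replicate 1, the library with the highest Foxi3 value, it was 1.89.

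**Figure D1:**
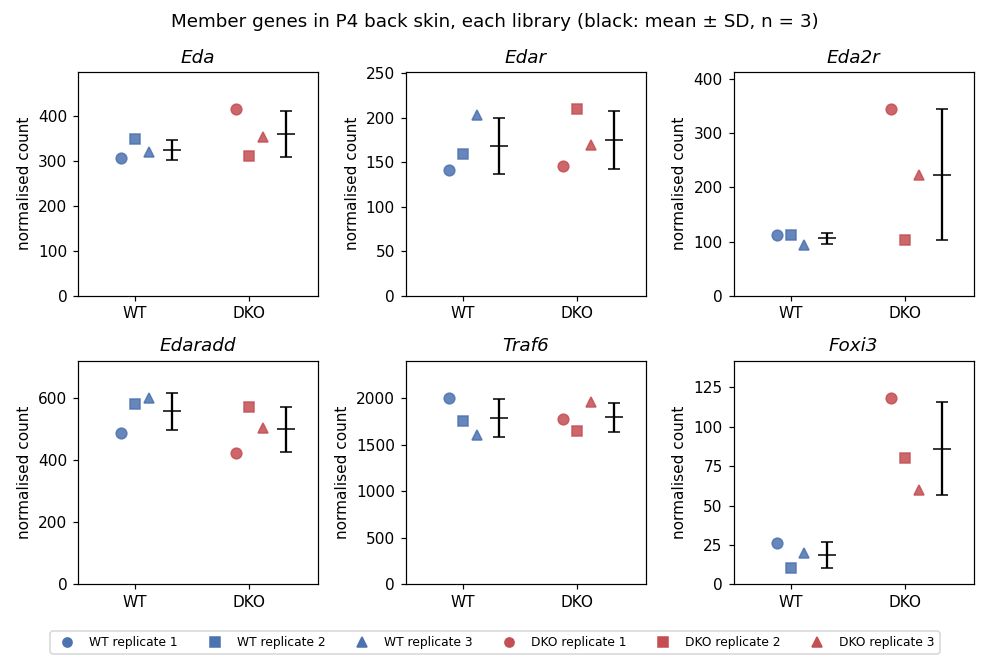
Normalised counts (y axis, starting at 0) of the 6 members with counts, in each WT (blue) and DKO (red) library of P4 back skin. Black bars give the mean ± SD of 3 libraries. Foxi3 lies between 10.2 and 26.5 in WT and between 59.7 and 118.3 in DKO, Eda2r is high in 2 of 3 DKO libraries, and the groups overlap for Eda, Edar, Edaradd and Traf6.

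Foxi1, a forkhead factor of ion-transporting cells in kidney and inner ear, and Foxi2, a forkhead factor of early cranial ectoderm, had no reads. Foxi1 (ENSMUSG00000047861, chr11:34204338-34208089, - strand) had 0 counts in each of the 6 libraries. Foxi2 (ENSMUSG00000048377, chr7:135410308-135413622, + strand) likewise had 0 counts in each. A count of 0 allows up to 3 counts per library, or 0.17 to 0.266 per 1000000 counts (CPM) at these depths, and this limit covers counting error only. Of the Foxi genes, Foxi3 thus had counts in both genotypes, and transcripts of the other two were not detectable at this depth in either.

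Eda (ENSMUSG00000059327, chrX:99975606-100400762, + strand), the ligand, did not differ between genotypes beyond the spread of the mice. Its normalised counts were 304.7, 348 and 319.1 in WT and 414.1, 311.1 and 351.4 in DKO. DKO replicate 1 was the highest of the 6, and the groups overlapped. The log2 fold change was 0.15, with a 95% interval of -0.21 to 0.50, and the adjusted p in edgeR's quasi-likelihood test was 0.935. The interval leaves out a fold change above 1.41. Counts per gene do not separate the splice forms of the ligand. Small genes lie inside Eda introns on the same strand, but their exons do not overlap its exons.

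Edar (ENSMUSG00000003227, chr10:58600789-58675654, - strand), the receptor of placodes and growing follicles, was at the same level in both genotypes within error. Its normalised counts were 141.7, 159.6 and 203.6 in WT and 145.9, 209.6 and 169.2 in DKO. The lowest value was in a WT mouse and the highest in a DKO mouse, with the rest interleaved. The log2 fold change was 0.06, with a 95% interval of -0.41 to 0.52, and the adjusted p was 0.977 in edgeR's quasi-likelihood test. Its sign turned when WT replicate 1 (-0.06) or DKO replicate 2 (-0.09) was left out.

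Eda2r (ENSMUSG00000034457, chrX:97333840-97377216, - strand), the alternative receptor, was the second member with a large difference, but the 3 DKO mice differed. Normalised counts were 111.1, 112 and 94.1 in WT and 344.4, 102.6 and 222 in DKO. DKO replicates 1 and 3 lay above all WT libraries, whereas DKO replicate 2 fell within the WT range. The means were 105.7 ± 10.1 in WT and 223 ± 120.9 in DKO (SD, n = 3). On the log2 scale the difference was 1.07, with a 95% interval of 0.26 to 1.88. In edgeR's quasi-likelihood test p was 0.0148 and the adjusted p 0.468, and the DESeq2 adjusted p was 0.161. Without DKO replicate 1 the log2 fold change was 0.61, and without DKO replicate 2 it was 1.42, with adjusted p = 0.0512 in edgeR and 1.91e-05 in DESeq2. Without the filter on low counts, edgeR gave Eda2r an adjusted p of 0.0326 (Benjamini-Hochberg).

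Eda and Eda2r are X-linked, and the mice were of both sexes. Xist, the RNA of the inactive X chromosome, had 55712 counts in WT replicate 1 and 57154 in DKO replicate 3, and 9 to 144 in the other libraries, where the Y-linked gene Ddx3y had 690 to 1416 counts. Each genotype thus held 1 Xist-expressing mouse and 2 others. With sex as a covariate the log2 fold change of Eda2r was 1.07 and its adjusted p 0.598 in edgeR's quasi-likelihood test, and that of Foxi3 was 2.19 with an adjusted p of 0.314.

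Edaradd (ENSMUSG00000095105, chr13:12471209-12520450, - strand), the adaptor bound by the EDAR death domain, had the only negative estimate among the tested members. Its normalised counts were 489.2, 581.4 and 600.6 in WT and 423.3, 570.3 and 503.7 in DKO. The lowest value was in DKO replicate 1, and the groups overlapped. The log2 fold change was -0.16, with a 95% interval of -0.52 to 0.20, and the adjusted p was 0.93 in edgeR's quasi-likelihood test.

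Traf6 (ENSMUSG00000027164, chr2:101678429-101701669, + strand), the ubiquitin ligase that links EDARADD and many other receptors to TAK1, was the most precisely measured member. Its normalised counts were 2002.8, 1757.9 and 1604.1 in WT and 1777.3, 1651.3 and 1956.1 in DKO. All DKO values fell inside the WT range. The log2 fold change was 0.01, with a 95% interval of -0.29 to 0.30, so that fold changes above 1.23 or below 0.817 lay outside the interval.

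**Figure D2:**
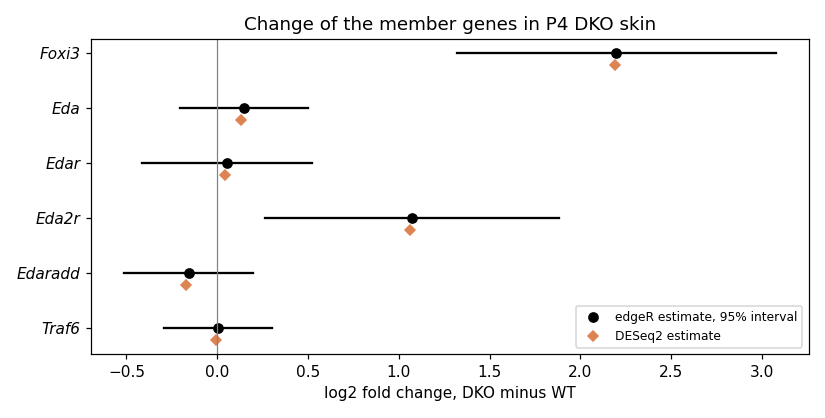
Log2 fold change of DKO over WT (x axis) for the 6 tested members, as estimated by edgeR (black points, with 95% intervals) and by DESeq2 (orange diamonds, drawn just below). The intervals of Foxi3 (1.32 to 3.08) and Eda2r (0.26 to 1.88) lie above 0, and those of Eda, Edar, Edaradd and Traf6 include 0.

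Over the members, 2 of 6 tested had an unadjusted p under 0.05, Foxi3 and Eda2r, both higher in DKO, beside 7.5% of all genes in either direction and 4.96% in that direction. Every DKO library lay above every WT library for 1 of 6, Foxi3, beside 7.24% of all genes. With 6 genes these shares describe the members and no more.

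To compare levels between genes, counts were expressed as CPM per kilobase of counted exon (CPM per kb). In WT skin Traf6 had the highest level of the members, 14.9 ± 1.68 CPM per kb (SD, n = 3). Edaradd followed with 4.53 ± 0.484, then Eda with 3.13 ± 0.213 and Edar with 3.05 ± 0.577 CPM per kb. The lowest detected levels were those of Eda2r, 1.18 ± 0.113, and Foxi3, 0.966 ± 0.421 CPM per kb. Neighbours in this order whose libraries overlapped were Eda with Edar and Eda2r with Foxi3. In DKO skin Foxi3 stood second, at 4.43 ± 1.53 CPM per kb, after Traf6 at 15 ± 1.28 and before Edaradd at 4.06 ± 0.598, although its libraries overlapped those of Edaradd, Eda (3.46 ± 0.501), Edar (3.17 ± 0.583) and Eda2r (2.49 ± 1.35).

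The genes acting below the receptors did not pass the test. Of 22 genes of NF-κB transduction, which include the TAK1 complex, the IκB kinases, the NF-κB subunits and their inhibitors, all 22 were tested and 0 were called by edgeR or by DESeq2. Over all genes 0.0694% and 0.732% were called, so that 0 calls among 22 genes is no result about the list. None of the 22 had an unadjusted p under 0.05 in edgeR, beside 7.5% of all genes. The median log2 fold change of the 22 was 0.08, beside 0.02 for all genes. The 3 smallest p-values belonged to Traf1, an NF-κB-induced adaptor (log2 fold change -0.42, adjusted p = 0.672), Nfkb2, the precursor of p52 (0.41, 0.726), and Rela, the p65 subunit (0.28, 0.85), all from edgeR with Benjamini-Hochberg adjustment. Nfkbia, which encodes the feedback inhibitor IκBα, had a log2 fold change of 0.28, with a 95% interval of -0.18 to 0.74.

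Of 16 genes known as targets of ectodysplasin signaling other than Foxi3, 13 were tested, 0 were called by edgeR or DESeq2 and 0 had an unadjusted p under 0.05. Over all genes these shares were 0.0694%, 0.732% and 7.5%, so that 0 among 13 genes is no result about the list. The median log2 fold change of the 13 was 0.16 in edgeR and 0.08 in DESeq2. In edgeR this median was 0.30 without WT replicate 2, 0.016 without WT replicate 3 and 0.052 without DKO replicate 1. Icam1, an adhesion molecule, had a log2 fold change of 0.39 (adjusted p = 0.769), Ccn2, a matricellular protein, 0.46 (0.784) and Cxcl11, a chemokine, 0.81 (0.796), in edgeR with Benjamini-Hochberg adjustment. Shh, the hedgehog ligand of the placode and hair matrix, averaged 290 ± 5.69 normalised counts in WT and 321.3 ± 39 in DKO (SD, n = 3), and Dkk4, a Wnt inhibitor of placodes, averaged 13 ± 1.17 and 12 ± 6.28. Fgf20, Ltb and Madcam1 had too few reads for the test.

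Of 14 genes that are known to act on expression of Eda, Edar or Foxi3, all were tested and 0 were called by edgeR or DESeq2, beside 0.0694% and 0.732% of all genes. By edgeR 2 had an unadjusted p under 0.05, both higher in DKO, beside 4.96% of all genes tested in that direction. These 2 were Acvr2b, an activin receptor, with a log2 fold change of 0.54, and Inhba, the activin A subunit, with 0.58. Inhba had 60.1, 62.8 and 67.6 normalised counts in WT and 103.8, 102.6 and 78.6 in DKO, and Acvr2b had 133.5, 101 and 139.4 in WT and 180.1, 206.3 and 157.3 in DKO. Both were thus higher in every DKO library than in every WT library, as were 7.24% of all genes tested. The adjusted p in edgeR was 0.544 for Inhba and 0.53 for Acvr2b. Bmp2, a ligand of the BMP pathway, had a log2 fold change of 0.27 (adjusted p = 0.899). The median of this list was 0.03, and it ranged from -0.045 to 0.13 over the edgeR and DESeq2 fits with a mouse left out.

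**Figure D3:**
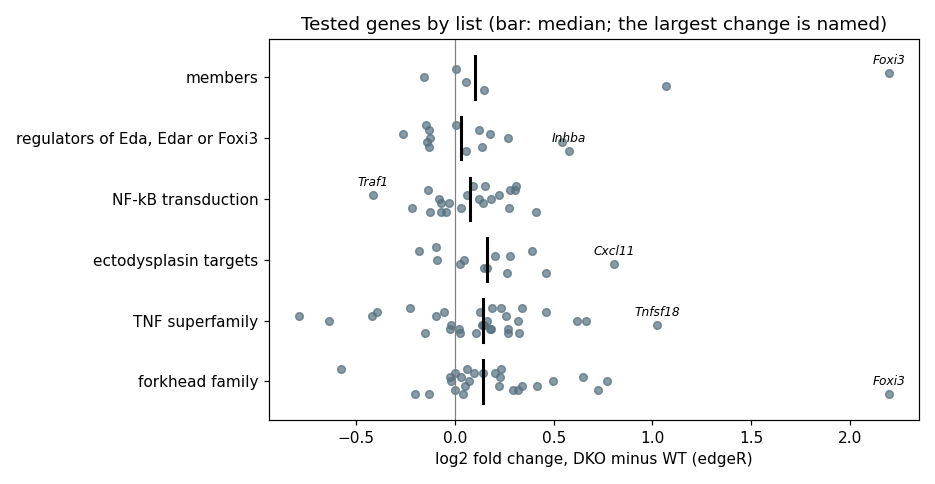
Log2 fold change of DKO over WT (x axis, edgeR) for each tested gene of the members and of 5 related lists (y axis). Each point is a gene, the black bar is the median of its list, and the gene with the largest change is named. Foxi3, at 2.20, lies farthest to the right, while the medians of the 5 lists lie between 0.03 and 0.16.

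Among its own family Foxi3 had the largest log2 fold change. The files name 44 forkhead genes, of which 27 were tested and 6 had 0 counts in every library. None was called by edgeR, where 1 had an unadjusted p under 0.05, beside 7.5% of all genes tested. DESeq2 called 1, beside 0.732% of all genes, and in both cases it was Foxi3. The family median was 0.14. The next smallest p-values were those of Foxd2, a factor of mesenchyme, at 0.77 (adjusted p = 0.677), and Foxp4, at 0.50 (0.692), in edgeR. Foxn1, a regulator of keratinocyte and hair shaft differentiation, had 2205.1 normalised counts in WT and 2012.3 in DKO, with a log2 fold change of -0.13.

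The other ligands and receptors of the tumor necrosis factor superfamily, to which Eda, Edar and Eda2r belong, were not called either. Of 43 such genes 32 were tested and 0 were called by edgeR or DESeq2, beside 0.0694% and 0.732% of all genes. By edgeR 3 had an unadjusted p under 0.05, all higher in DKO, beside 4.96% of all genes tested in that direction. These were Tnfrsf1b, a receptor of TNF (log2 fold change 0.62, adjusted p = 0.492), Tnfsf18, the ligand of GITR (1.02, 0.64), and Tnfrsf23, a decoy receptor (0.34, 0.649), in edgeR with Benjamini-Hochberg adjustment. The median of the list was 0.14. Eda2r, at 1.07, had a larger log2 fold change than each of the 32.

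Genes with the pattern nearest to that of Foxi3 were sought among 19894 tested genes with a mean of at least 10 normalised counts. Likeness was the root mean square difference of log2 CPM, each centred on its gene's mean, over the 6 libraries, where 0 would be an identical pattern and the SD of Foxi3 itself was 1.15. The nearest was Cd300ld, a myeloid surface receptor, at 0.291, and the tenth was Kcnj11, a potassium channel subunit, at 0.492. Between them came Gm17281, Chrnd, Bex1, Gm28523, Th, Gm15816, Fbp2 and Cox8b. Bex1 alone among the 10 was called by edgeR, with 17.5 normalised counts in WT, 91.6 in DKO and an adjusted p of 0.0155 (Benjamini-Hochberg). In DESeq2 Bex1, Cd300ld, Chrnd and Fbp2 were called, with adjusted p-values of 3.22e-08, 0.0425, 0.0445 and 0.0201, beside 0.732% of all genes called. Chrnd, a subunit of the muscle acetylcholine receptor, had 27.5, 14.4 and 20.5 normalised counts in WT and 105.2, 51.8 and 37.8 in DKO. Fbp2, the muscle form of fructose bisphosphatase, had 37.4 in WT and 109.3 in DKO. Such likeness over 6 libraries in 2 groups is a description, and the points share their libraries and depth. The 10 genes were picked for the Foxi3 pattern in these same libraries. Their higher values in DKO and their calls thus follow from the choice and are no separate result.

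**Figure D4:**
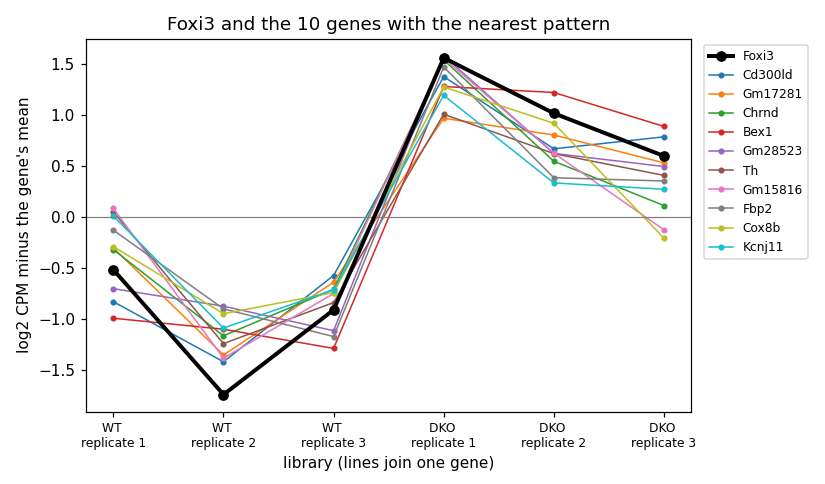
Log2 CPM of Foxi3 (black) and of the 10 genes nearest to it in pattern (colours), each minus the mean of that gene, in the 6 libraries on the x axis. Lines join the values of 1 gene and mark no order of the mice. For Foxi3 the WT libraries lie between -1.74 and -0.52 and the DKO libraries between 0.60 and 1.56, highest in DKO replicate 1.

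The genes beside Foxi3 on chromosome 6 were not called. On the lower side lay Eif2ak3, the stress kinase PERK, with a log2 fold change of 0.22, Gm43292 with -0.14 and Rpia, an enzyme of the pentose phosphate pathway, with -0.11. On the higher side lay Thnsl2 at -0.003, Smyd1 at 1.31 and Krcc1 at -0.12. Smyd1, a methyltransferase of heart and skeletal muscle, had a mean of 123.1 ± 12.8 normalised counts in WT and 306.8 ± 192.5 in DKO (SD, n = 3), with adjusted p = 0.342 in edgeR.

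Other compartments of the skin moved with genotype beside Foxi3. The summed level of 32 skeletal muscle markers was 104193.7 to 119196.7 normalised counts in WT, and 358081.8, 169134.3 and 168884.5 in DKO replicates 1, 2 and 3. Of the 31 muscle markers tested, 0 were called by edgeR, beside 0.0694% of all genes tested. An unadjusted p under 0.05 in edgeR was found for 27, all higher in DKO, beside 4.96% of all genes in that direction. DESeq2 called 14, all higher in DKO, beside 0.732% of all genes in either direction. The median log2 fold change of the muscle list was 1.05, and 0.53 without DKO replicate 1, where that of Foxi3 was 1.89. Relative to the WT mean, Foxi3 stood at 6.3, 4.29 and 3.18 in DKO replicates 1, 2 and 3 and the muscle sum at 3.23, 1.53 and 1.52. Eda2r had 344.4, 102.6 and 222 normalised counts in DKO replicates 1, 2 and 3. The part of muscle in the values of Foxi3 and Eda2r was not tested.

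Within the epithelium, 10 stress keratins and alarmins summed to 2055.8 to 3450.4 normalised counts in WT and 8295.2 to 9312.1 in DKO. Krt16 (234.7 and 2763.7 in WT and DKO) and Stfa2 (237.3 and 2253.1) of this list were called higher by edgeR, beside 0.0694% of all genes called. All 9 tested had positive estimates, and 5 were higher in every DKO library, beside 7.24% of all genes. Krt6a, S100a8, Il33 and Lcn2 overlapped between genotypes, and S100a9 was not tested. The 10 sebaceous gland markers summed to 9174.5 to 10529.5 in WT and 2874.9 to 5731.5 in DKO, with 0 called by edgeR. In edgeR 8 of them had an unadjusted p under 0.05, of which 7 were lower in DKO, beside 7.5% of all genes in either direction. DESeq2 called 4 lower, beside 0.732% of all genes called in either direction. The sums of 10 suprabasal keratinocyte markers (DKO to WT ratio 1.33) and of 8 dermal papilla markers (1.17) also did not overlap, being higher in DKO. Of the dermal papilla markers, 5 had positive and 3 negative estimates, and 6 overlapped between genotypes. The suprabasal list was mixed: 6 of its markers had positive and 4 negative estimates, with a median log2 fold change of 0.16 and 0 called by edgeR or DESeq2. Its abundant keratins Krt1 (26925.1 and 46590 normalised counts in WT and DKO) and Krt10 (29312.3 and 40743.9) were higher in every DKO library, and Flg2 and Dsg1a were lower in every DKO library. Of the 8 upper follicle markers, 7 had positive and 1 a negative estimate, with a median log2 fold change of 0.19. By edgeR 2 of them, Lgr6 and Gata6, had an unadjusted p under 0.05, both higher in DKO, beside 4.96% of all genes in that direction. These 2 were also higher in every DKO library, beside 7.24% of all genes, and none of the 8 was called. The sums of markers of the upper follicle (1.09), bulge and hair germ (0.974) and basal keratinocytes (1.09) overlapped between genotypes. So did that of the hair matrix, inner root sheath and shaft (0.673). Of its 15 markers 14 had negative estimates, with a median log2 fold change of -0.33 (-0.753 to -0.061 in edgeR with a mouse left out). By edgeR 3 had an unadjusted p under 0.05, all lower in DKO, beside 7.5% of all genes, and 0 were called. In every DKO library 4 were lower than in all WT libraries, a count given without the share of all genes in that direction. The sums of adipocyte, fibroblast, endothelial, melanocyte, immune and red blood cell markers (0.857 to 1.24) overlapped too. With 3 against 3 libraries the exact two-sided permutation test of a sum cannot go below p = 0.1, which was reached by each of the sums that did not overlap. The part of these compartments in the Foxi3 value was not tested.

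**Figure D5:**
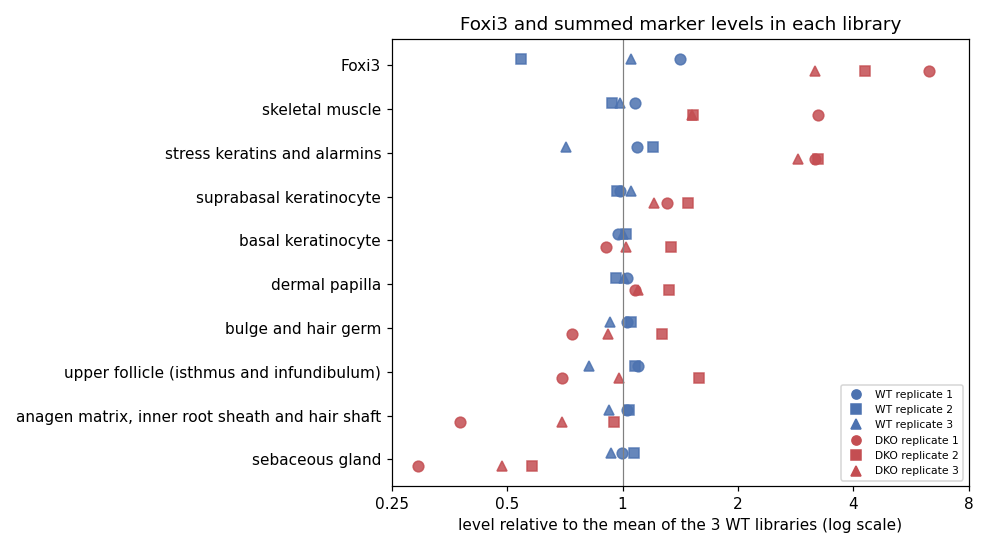
Level of Foxi3 and summed level of 9 marker lists in each library, as multiples of the WT mean of 3 libraries (x axis, log scale). Blue symbols are WT and red symbols DKO, with 1 symbol shape per replicate number. Foxi3 stands at 3.18 to 6.3 in DKO and the muscle markers at 1.52 to 3.23. The stress keratins and alarmins stand at 2.87 to 3.23 and the sebaceous gland markers at 0.292 to 0.582.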

How the data were processed

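RNA was isolated from full-thickness back skin of P4 mice, depleted of rRNA and sequenced in pairs. According to the study's methods and the labels' processing notes, the authors used Trimmomatic 0.36 for trimming, STAR 2.5.2b for alignment to GRCm38 and featureCounts of Subread 1.5.2 for the deposited raw counts per gene. The strand setting is not given in the sources used here. Gene IDs were matched to symbols for 48970 of 49315 genes.

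Counts of 3 WT and 3 DKO libraries were compared with edgeR 4.0.16 (R 4.3.3) by the quasi-likelihood test after filterByExpr and TMM scaling, with Benjamini-Hochberg adjustment over all genes tested, and normalised counts are CPM times the mean effective library size. Intervals are 95% t intervals of that fit. Alternatives were DESeq2 1.42.0, limma voom 3.58.1, other scalings and filters, a block for the number shared in the titles, and leaving out each mouse. The main edgeR fit, DESeq2 and limma voom, each without a block, were tested on simulated counts of 3 against 3 libraries. The other alternatives were not tested in this way. The labels name separate mice, and replicates were numbered in accession order. No pair of libraries of a group was alike within sampling noise (chi-square per gene 8.92 to 57.8).

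Named genes are all members, the targeted genes, of each list the 3 smallest p-values and any called gene, the 10 genes most like Foxi3, its 3 tested neighbours on each side and sex-linked genes. Of the marker lists, which serve as a check on compartments, sums and calls are given instead. Shh, Dkk4, Nfkbia and Foxn1 were named after their values were seen. Members and lists were chosen with earlier results of these data known. An antisense transcript that matched the name pattern of the tumor necrosis factor list was taken out after the values were seen. Promoters are from RefSeq (GRCm38.p6) and transcripts from GENCODE M21.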

Additional observations from a re-analysis of the deposited data

How the results depend on the processing

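The number of genes called, 14, depended on the method and on single mice. It was 151 in DESeq2, 22 with total counts in place of TMM scaling, 210 without the filter on low counts and 2 to 36 when each mouse was left out in turn. In DESeq2 it was 67, 64 and 73 without WT replicate 1, 2 or 3 and 65, 206 and 171 without DKO replicate 1, 2 or 3. With analyses chosen after seeing the data it was 4 with sex as a covariate and 9 in the 4 libraries that share a number in their titles. In the 4 libraries without Xist expression edgeR called 0 genes, with 968 at an unadjusted p under 0.05; DESeq2 was not run on them. Correlations of deviations from the group means were -0.019 to 0.23 between mice that share a number and -0.152 to -0.104 between those that do not. All of the former lie above the latter, but the labels do not say what the number marks, so the main fit did not treat the mice as paired. WT replicate 3 and DKO replicate 1 carry the number 40972, and the other libraries carry 47347. DKO replicate 1 is thus the only DKO mouse of its number, and what sets it apart cannot be told apart from that number. In the libraries of number 47347 alone the log2 fold change of Foxi3 was 1.94. With the number as a replicate block edgeR called 35 genes and DESeq2 149, and the block gave Foxi3 2.18 (adjusted p = 0.0652 in edgeR) and changed no member's call in either tool.

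Foxi3 kept its direction in every fit. It was called in DESeq2 with each mouse left out (adjusted p 0.000261 to 0.0224) and in none of the edgeR fits with a mouse left out (0.1 to 0.535). Eda, Eda2r and Edaradd kept their direction in every fit. Edar reversed in the 4 libraries without Xist expression (-0.027) and in DESeq2 without WT replicate 1 (-0.06) or DKO replicate 2 (-0.093), and ranged from -0.089 to 0.203 in edgeR with a mouse left out. Traf6, near 0, was negative in DESeq2 (-0.006), with total counts (-0.026), with DESeq2-style (RLE) scaling (-0.005), with at least 10 counts in every library (-0.005), with no filter (-0.016), library sizes without muscle genes (-0.007), the 4 libraries of one number (-0.076) and DESeq2 with the block (-0.002), and ranged from -0.077 to 0.088 in edgeR with a mouse left out. In DESeq2 it was -0.019 and -0.083 without WT replicate 2 or 3 and -0.003 and -0.085 without DKO replicate 1 or 3. Another scaling moved the median of all genes to between -0.02 and 0.02. With a mouse left out, in edgeR or DESeq2, list medians ran from 0.01 to 0.105 for NF-κB transduction, -0.007 to 0.3 for ectodysplasin targets, -0.045 to 0.13 for regulators of Eda, Edar or Foxi3, 0.043 to 0.251 for forkhead genes and 0.031 to 0.164 for the tumor necrosis factor superfamily. The cause of these differences between fits was not tested. Foxi3 had 12 to 90 reads a library, so that counting error is a larger share of its value than for the other tested members.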

Other observations

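Genes near to Eda2r in pattern, sought in the same way as for Foxi3 but chosen after its values were seen, included Ddc, the decarboxylase of dopamine and serotonin synthesis, and Trdn, a protein of the muscle triad. Ddc had 23.4, 21.2 and 18 normalised counts in WT and 59.2, 18.8 and 47.8 in DKO, with a root mean square difference from Eda2r of 0.116. Trdn had 511.6, 407.4 and 399.5 in WT and 1615.6, 464.4 and 729.7 in DKO, with a difference of 0.19. The nearest gene was Gm16083 (0.0954), and Ddc and Trdn held ranks 2 and 6. Both, like Eda2r, were high in DKO replicates 1 and 3 and lower in DKO replicate 2. This pattern follows from the choice, since the genes were picked for it in these same libraries. Neither was called (adjusted p = 0.635 for Ddc and 0.483 for Trdn in edgeR's quasi-likelihood test).

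Th, an enzyme of dopamine synthesis, was among the 10 genes nearest to Foxi3 and had 11.2, 3.4 and 5.13 normalised counts in WT and 23.7, 17.6 and 14.9 in DKO, with an adjusted p of 0.458 in the same test. Th and Ddc came from separate lists, each picked by pattern, and a link between them was not tested.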
